A study of Mus musculus with 2 samples.

Results

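The unfolded protein and ATF4 stress genes are 35 genes of the response to misfolded protein and to amino acid shortage, taken as a named list from the 31053 genes counted in 2 single-cell RNA libraries of mouse subcutaneous fibrosarcoma. All 35 were found by symbol. They were sorted by role into 14 chaperones and folding enzymes of the endoplasmic reticulum (ER), 5 genes of the translocon and of ER-associated degradation, 5 sensors and transcription factors, 5 amino acid and one-carbon genes and 6 other stress genes reached by ATF4. Both libraries came from syngeneic tumours grown under the skin of wild-type C57BL/6 mice, and neither group carried an added allele. The study compared tumours that received the animals' own red blood cells with tumours that received saline, but the library titled Control has a treatment label that names erythrocytes, and the library titled Blood has one that names PBS. The libraries are therefore called by their titles. Every ratio divides the level titled Blood by the level titled Control and cannot be read as an effect of red blood cells. Each group had 1 library, so no test between libraries was possible, and the intervals given cover counting error only.

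In cells that fold much secreted protein, an overloaded ER is sensed by Ern1 (the kinase and nuclease IRE1), by Atf6 and by the kinase PERK. IRE1 splices the Xbp1 transcript, and XBP1 and the cleaved ATF6 raise chaperones, disulfide isomerases, the translocon and the degradation machinery. PERK and related kinases phosphorylate the translation factor eIF2 and so favour translation of Atf4, whose protein raises amino acid synthesis and transport genes, Ddit3 (the factor CHOP), Trib3, Chac1, Sesn2 and Ppp1r15a (GADD34, which reverses the phosphorylation). Much of this control acts on splicing, cleavage or translation, which gene-level counts do not show.

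The promoters of these genes were read first, because the chaperones and the ATF4 genes are known to be reached by different factors. RefSeq promoters of build GRCm38.p6 were at hand for 30 of the 35 genes, and the 250 bases before each start were searched on both strands. The ER stress element, searched as CCAAT and CCACG with any 9 bases between them, was in 7 of 12 chaperone genes and in 0 of the 10 amino acid and other stress genes, against 35 of all 27025 genes with a promoter (0.130%). A shorter form, ATTGG and CCACG with any 1 base between them, was in Herpud1 alone among the members and in 10 genes in all (0.0370%). The sites are printed with 5 bases on each side, 5′ to 3′ along the strand that carries the element, and capitals mark its fixed letters:
Hspa5, chr2:34772020-34772048, plus strand: cttcaCCAATcggaggcctCCACGacggg
Hsp90b1, chr10:86705633-86705661, minus strand: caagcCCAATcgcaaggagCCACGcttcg
Hsp90b1, chr10:86705528-86705556, plus strand: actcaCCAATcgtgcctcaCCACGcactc
Dnajc3, chr14:118937822-118937850, plus strand: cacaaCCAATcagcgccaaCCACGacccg
Pdia6, chr12:17266486-17266514, plus strand: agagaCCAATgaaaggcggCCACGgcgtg
Calr, chr8:84847070-84847098, plus strand: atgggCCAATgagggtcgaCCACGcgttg
Canx, chr11:50325795-50325823, minus strand: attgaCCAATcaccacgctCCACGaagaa
Creld2, chr15:88819515-88819543, minus strand: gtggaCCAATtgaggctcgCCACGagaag
Herpud1, chr8:94386372-94386392, plus strand: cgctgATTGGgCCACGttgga
The elements lay 52 to 212 bases before the annotated starts. The letters TGACGTGG, an XBP1-type element in 0.603% of all genes, and TGATGNAAT, a CHOP-ATF4-type element in 0.910%, were in 0 of the 30 member genes, which says only that these letters were not in these windows. The bare letters CCAAT, which are also the start of the ER stress element, were in 24 of the 30 and in 37.5% of all genes.

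The counts were unique molecular identifiers (UMIs), which count transcripts once whatever their length. Levels of different genes were set side by side without correction for other differences in how well each gene is counted. After filtering, 8713 cells titled Control and 11130 titled Blood were kept, with medians of 9387 and 6717 UMIs. The libraries listed 349 barcodes in common, and for 324 of them 1 side held at least 10-fold fewer UMIs, with a median of 1.94% of the other side. Why they are shared was not tested. That side was left out (112 barcodes titled Control and 212 titled Blood), and values with it kept are given below where they differ. Clusters made without the 35 genes or the wider pathway were named from marker lists, and levels are UMIs scaled to a common total for each class and library (CPM). The macrophage-like class was the largest, with 5463 and 5221 cells. Neutrophil-like cells numbered 129 titled Control and 1771 titled Blood. A pair of clusters scored highest for macrophage markers but stayed unnamed because platelet genes outnumbered those markers among their leading genes, and they are called the Retnla-led and the Cd36-led cluster. With them, 9 classes had at least 100 cells in each library, and every order of classes given is over these 9 alone. The labels do not say which cells were tumour cells. The mesenchymal-like class, with 213 and 127 cells, could hold tumour cells and fibroblasts, which the marker list cannot tell apart.

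ER chaperones were abundant in nearly every class, and in the library titled Control most of them were lowest in neutrophil-like cells. Hspa5 (BiP), the main ER chaperone and the regulator of the sensors, stood at 989 CPM titled Control and 961 titled Blood in macrophage-like cells and at 981 and 875 in mesenchymal-like cells. T cell-like cells had 462 and 499. Hsp90b1 (GRP94), the ER form of HSP90, was highest in mesenchymal-like cells at 897 and 876 CPM, where the lectin chaperone Calr was also highest at 925 and 769. The disulfide isomerases Pdia3 (363 and 354 CPM) and Pdia6 (432 and 383) had their highest level in the same class in both libraries, above the next class beyond counting error. These levels pool UMIs, so deep cells weigh more. Titled Control, the mesenchymal-like subcluster led by Tm4sf1 held 48 of 213 cells but 3000637 of 6311927 UMIs. A mesenchymal-like subcluster led by Crabp1, whose best-scoring markers were those of macrophages, held 2663 CPM of the 14 chaperones titled Control and 649 titled Blood. That led by Cited1 held 1491 and 865. The other mesenchymal-like subclusters held 3395 to 5394 and 4006 to 5038 CPM. The lead of the class is therefore in pooled UMIs and not in every cell. In the library titled Control 12 of the 14 chaperone genes were lowest in neutrophil-like cells, and in the library titled Blood 6 were lowest there and 6 in T cell-like cells.

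Single chaperones departed from that order. Dnajb9 (ERdj4), a cochaperone of BiP, was highest in neutrophil-like cells, at 127 and 241 CPM, 2.5 and 2.9 times the next class. Sdf2l1, a partner of BiP, was highest in conventional DC-like cells, at 166 and 146 CPM, and stood at 15.4 and 9.37 CPM in neutrophil-like cells. With each cell thinned to 1500 UMIs, 17.5% and 15.3% of conventional DC-like cells held a UMI of Sdf2l1. Macrophage-like cells, at 18.8% and 14.8%, did not differ from them beyond counting error. Dnajc3 (P58IPK), a cochaperone that also inhibits PERK, was highest in NK cell-like cells at 160 and 154 CPM, although the next class did not differ beyond counting error. Of the translocon and degradation genes, Herpud1, a scaffold of the degradation complex, was highest of the 9 classes in conventional DC-like cells at 171 and 171 CPM, 1.8 and 1.6 times the next class. Sec61b, a small subunit of the translocon, was highest in the same class at 645 and 660 CPM, within counting error of monocyte-like cells. Pdia4, a further disulfide isomerase, had 113 and 121 CPM in macrophage-like cells and 7.70 and 11.9 in neutrophil-like cells. Vldlr, a lipoprotein receptor, was close to absent, with at most 3.93 CPM in any of the 9 classes. Over all 35 genes, 25 had the same highest class in both libraries.

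**Figure D1:**
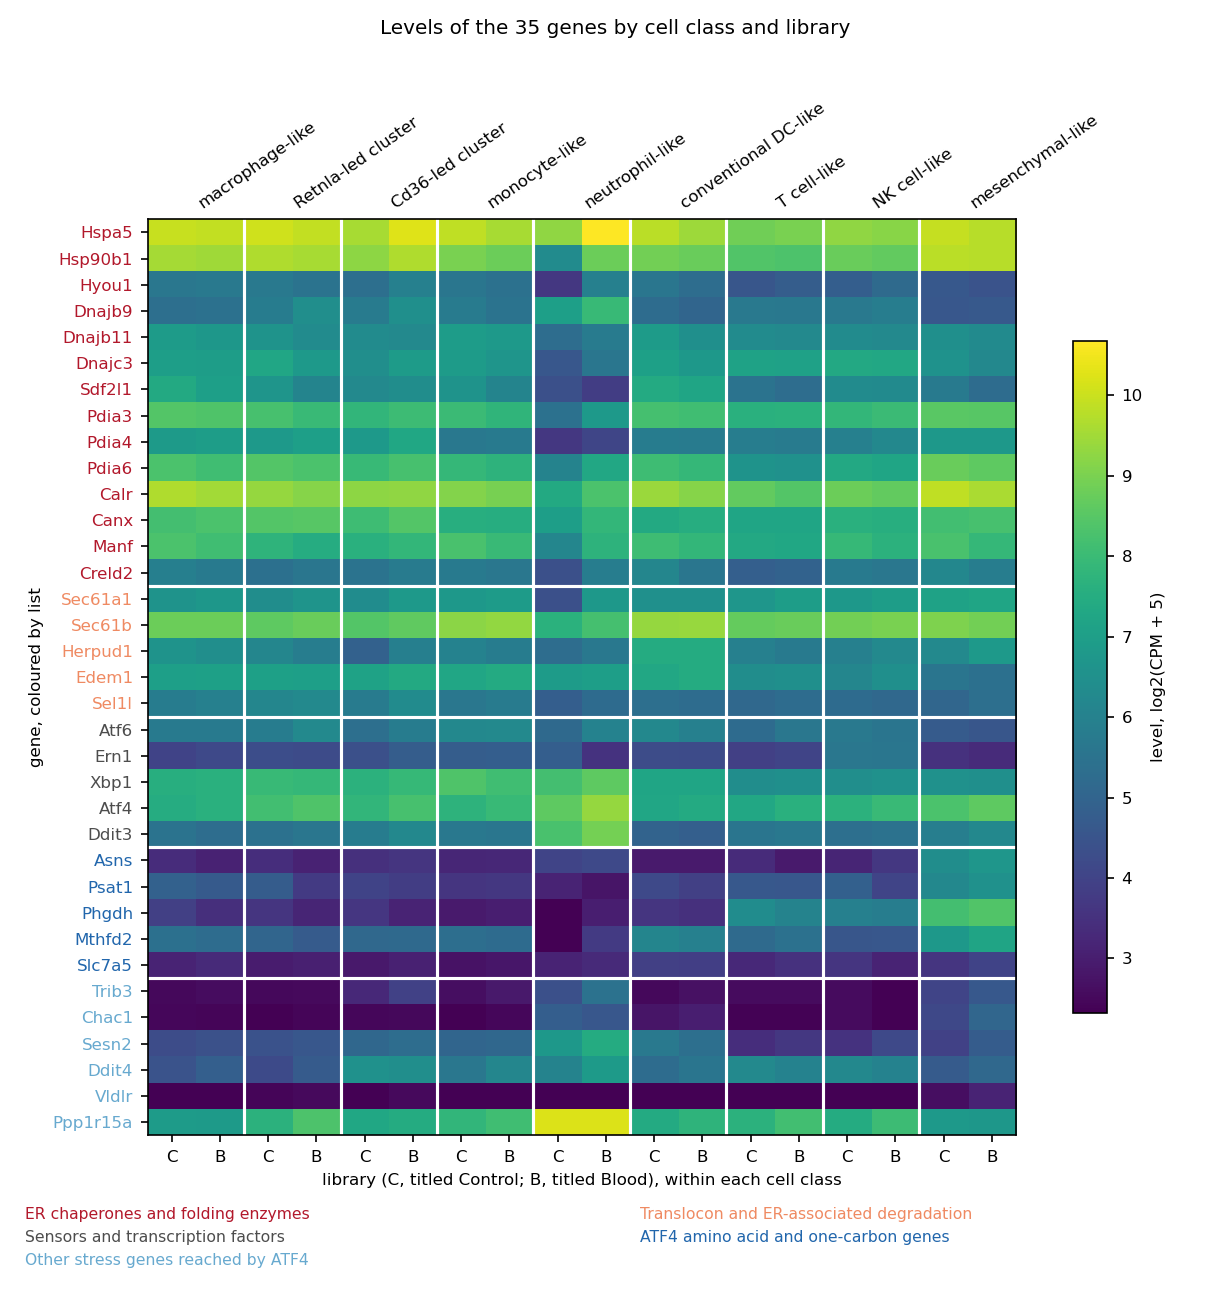
Level of each of the 35 genes (rows, coloured by list) in 9 cell classes and both libraries, as log2 of CPM plus 5; C is the library titled Control and B the library titled Blood. Most chaperone rows are darkest in neutrophil-like cells titled Control, Ddit3 and Ppp1r15a are brightest in neutrophil-like cells, and most amino acid rows are brightest in mesenchymal-like cells.

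Several stress genes were highest in neutrophil-like cells. Ddit3 stood at 304 CPM titled Control and 483 titled Blood there, 5.5 and 6.9 times the next class, while the other 8 classes held 24.1 to 70.2 CPM. Ppp1r15a had the highest measured level of the 35 genes in neutrophil-like cells titled Control, at 1209 CPM, and stood at 1207 titled Blood. The next of the 9 classes had 223 and 319 CPM. Sesn2, a stress-induced inhibitor of mTORC1, reached 104 and 173 CPM against 46.5 and 36.3 in conventional DC-like cells. Atf4 was highest in neutrophil-like cells as well, at 385 and 643 CPM, but in the library titled Control it did not differ beyond counting error from mesenchymal-like cells at 309. Trib3, a pseudokinase that binds ATF4, was low in all 9 classes, with 15.4 and 39.1 CPM in neutrophil-like cells, 11.6 and 19.4 in mesenchymal-like cells and at most 10.3 in the other classes.

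The sensors themselves were less uneven. Xbp1 had 281 and 380 CPM in neutrophil-like cells and 323 and 273 in monocyte-like cells, against 80.8 and 84.5 in T cell-like cells. Ern1 was highest in NK cell-like cells, at 44.1 and 43.5 CPM, and the other 8 classes had at most 23.3. Atf6 lay between 18.3 and 71.7 CPM over the 9 classes and both libraries.

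Neutrophil-like cells also had the fewest UMIs per cell, with medians of 1962 and 1746, so shares of cells were compared after thinning each cell to 1500 UMIs and leaving out shallower cells. At that depth 31.5% of 108 neutrophil-like cells titled Control held a Ddit3 UMI (exact 95% interval 22.9 to 41.1%) and 37.6% of 1206 titled Blood (34.9 to 40.4%). Macrophage-like cells, thinned from medians of 13067 and 13131 UMIs, held one in 6.02% and 5.27%. Before thinning the shares were 34.9% and 40.4% in neutrophil-like and 37.8% and 32.2% in macrophage-like cells, shares that depend on the unequal depth. Phgdh, by contrast, was found in 0 of the 108 cells (upper bound 3.36%) and in 0.415% of the 1206.

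The amino acid and one-carbon genes were led by mesenchymal-like cells. Phgdh, the first enzyme of serine synthesis, stood there at 287 CPM (interval 274 to 301) titled Control and 332 (314 to 351) titled Blood, 3.7 and 5.4 times the next class. Psat1, the next enzyme of that route, had 69.9 and 89.3 CPM, and the mitochondrial folate enzyme Mthfd2 had 104 and 142. Asns, which makes asparagine, had 79.5 and 99.3 CPM, while no other of the 9 classes exceeded 12.8. Of the 9 classes, mesenchymal-like cells had the highest level of all 5 genes titled Blood and of 4 of 5 titled Control, where Slc7a5, a large amino acid transporter chain, was highest in conventional DC-like cells at 9.82 CPM, not beyond counting error. Chac1, which breaks down glutathione, was found mainly in neutrophil-like cells (23.1 and 19.1 CPM) and mesenchymal-like cells (12.7 and 28.5).

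Lymphocytes shared part of this pattern. Phgdh was second in T cell-like cells, at 77.9 and 62.1 CPM, followed by NK cell-like cells at 57.6 and 53.5, while macrophage-like cells had 10.1 and 5.80. Within T cell-like cells, the Foxp3-expressing cluster had the highest Phgdh (117 and 82.2 CPM), with intervals that overlap those of the Cd8b1-led cluster (99.2 and 72.3). The Foxp3-expressing cluster held 211 and 191 CPM of Ddit4 (REDD1), an inhibitor of mTORC1, against 32.0 to 59.4 in the other 3 T cell-like clusters. Neutrophil-like cells had low levels of the amino acid genes, with 19.2 CPM titled Control and 31.2 titled Blood for all 5 together, while their Atf4, Ddit3 and Ppp1r15a levels were the highest of the 9 classes, for Atf4 titled Control within counting error.

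**Figure D2:**
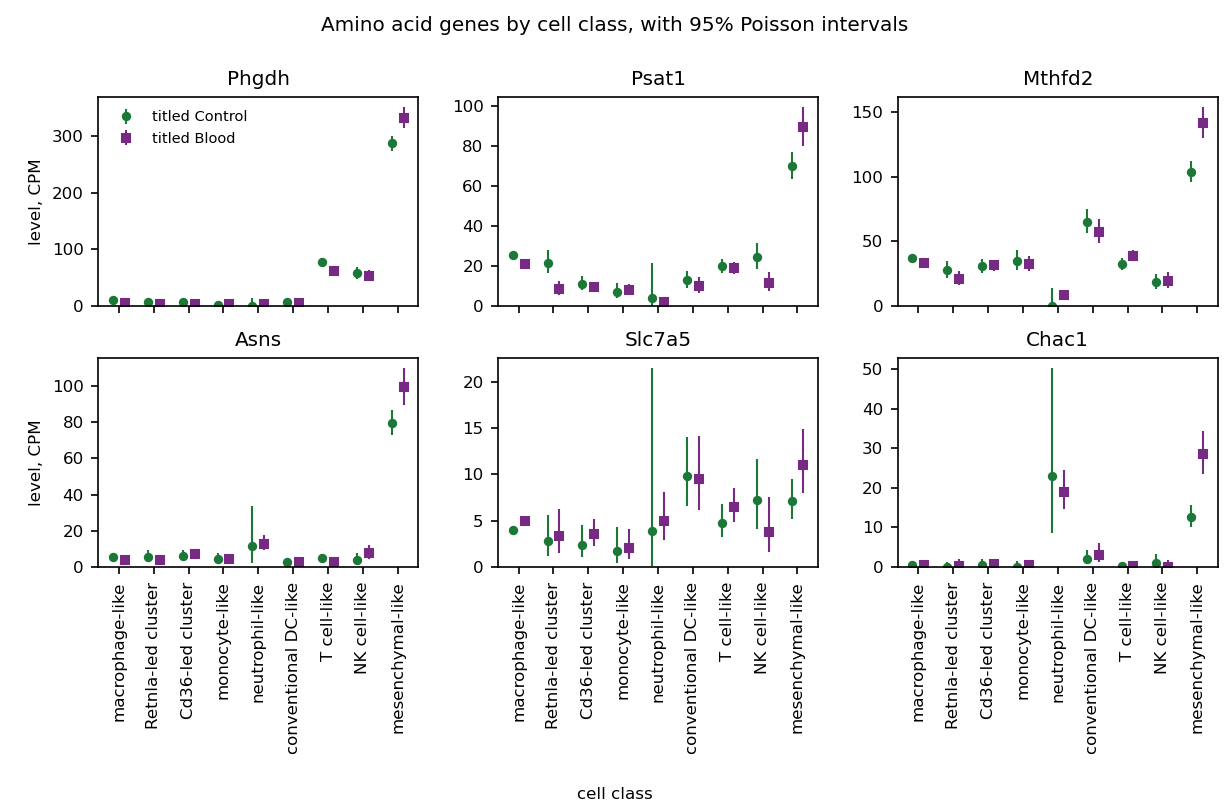
Level in CPM of 6 genes reached by ATF4 in 9 cell classes, with exact 95% Poisson intervals, circles for the library titled Control and squares for titled Blood. Phgdh, Psat1, Mthfd2 and Asns peak in mesenchymal-like cells in both libraries, and Chac1 is found mainly in neutrophil-like and mesenchymal-like cells.

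Within mesenchymal-like cells the amino acid genes were uneven. The subcluster led by Tm4sf1, Ankrd1 and Acta2, with 48 cells titled Control and 22 titled Blood, held 728 and 1018 CPM of the 5 genes together. The subcluster led by Col3a1 and Col1a1, with 34 and 15 cells, held 231 and 233 CPM. For the 14 chaperones the order was the other way round, with 4484 and 4006 CPM in the Tm4sf1-led and 5394 and 4549 in the Col3a1-led subcluster. A further subcluster of 9 and 4 cells was led by endothelial genes and had 51.4 and 101 CPM of the amino acid genes. The Crabp1-led subcluster, of 37 and 22 cells with median UMIs of 1452 and 1591, held 21437 CPM of macrophage markers titled Control against 1724 titled Blood. Its mesenchymal markers summed to 467 and 339 CPM. Without those last 2 subclusters the log2 ratio of Chac1 in the class was 0.95, compared with 0.92 with them.

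Among the 8 macrophage-like clusters the highest level of a chaperone was 1.16 (Manf) to 1.75 (Pdia4) times its lowest titled Control and 1.28 (Dnajc3) to 1.76 (Dnajb9) times titled Blood. The 5 amino acid genes had ranges of 2.61-fold (Asns) to 4.02-fold (Psat1) and of 1.96-fold (Phgdh) to 3.73-fold (Mthfd2). Hspa5 ranged from 839 to 1134 CPM titled Control and from 793 to 1170 titled Blood, a range of 1.35-fold and 1.47-fold. Manf, a secreted ER stress protein that binds BiP, ranged from 294 to 340 CPM titled Control and from 241 to 341 titled Blood, 1.16-fold and 1.42-fold. Psat1 and Mthfd2 were highest in the cluster led by Nusap1 and Mki67, genes of dividing cells, at 46.7 and 42.8 CPM and at 61.3 and 65.6 CPM, a range over the clusters of 4.02-fold and 3.56-fold for Psat1. Herpud1 was highest, at 154 and 137 CPM, in the cluster led by Dnase1l3, which also carried Cxcl9 and MHC class II genes among its leading genes. Ddit4 ranged 4.15-fold and 4.33-fold. These clusters share libraries, so the ranges describe the cells of 1 tumour sample per library.

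Migratory DC-like cells, 63 titled Control and 57 titled Blood, had little Hspa5 (295 and 280 CPM) and Calr (240 and 217). They held 221 and 210 CPM of Herpud1, 186 and 132 of Mthfd2 and 397 and 512 of Ppp1r15a. The Herpud1 levels, and that of Mthfd2 titled Control, were above those of all 9 larger classes, for Herpud1 titled Blood with intervals that overlap. Phgdh had 0 and 1 UMI in them.

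The levels of the 35 genes over the 22 clusters with at least 50 cells, both libraries together, were set against each other as log2 of CPM plus 5. The correlation is a description over clusters that share libraries and differ in depth. Among the 91 pairs of chaperones the median Pearson correlation was 0.67, with the closest pair Hsp90b1 and Pdia6 at 0.95. Among the 10 pairs of amino acid genes it was 0.41, and between chaperones and amino acid genes it was 0.06 over 70 pairs. Between chaperones and the other stress genes it was -0.28, and Pdia3 and Ppp1r15a reached -0.90. Atf4 went with Trib3 (0.86), Ddit3 (0.75) and Chac1 (0.73), and less with Asns (0.46), and its correlation with Psat1 was -0.22. Trib3 had at most 1.61 CPM and Chac1 at most 1.08 in any macrophage-like cluster of either library, so a few clusters can set their correlations. No value for pairs of other genes is given beside these correlations. Dnajb9 went with Ddit3 (0.81). The 7 chaperones with an ER stress element had a median of 0.75 among themselves and the 5 searched without one 0.73.

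In the comparison of the libraries, a gene was measured in a class if it had a mean of at least 10 CPM and at least 20 UMIs over both, and a ratio was called past 1.5-fold on the scale of CPM plus 5. In macrophage-like cells 0 of 29 measured members were past 1.5-fold in either direction, where 0.379% of all measured genes were higher and 0.824% lower in titled Blood. The medians there were -0.04 on the log2 scale for the 19 ER folding, translocon and degradation genes and -0.05 for the 5 measured amino acid and other stress genes. T cell-like cells also had 0 of 29 (1.09% of all genes higher and 1% lower), as did conventional DC-like cells (1.12% and 1.17%). Monocyte-like cells had 0 of 28 (1.16% and 0.968%). NK cell-like cells had 1 of 29 lower, Psat1 at 24.3 and 11.5 CPM (1.98% of all genes higher and 1.72% lower). The Retnla-led cluster had 2 higher, Dnajb9 (51.2 and 82.7 CPM) and Ppp1r15a (203 and 319), and 1 lower, Psat1 (21.7 and 8.42), where 3.62% of all genes were higher and 5.27% lower. Its 10 neutrophil markers summed to 114.6 CPM titled Control, with Retnlg at 0, and 352 titled Blood, S100a9 going from 2.49 to 90.05 CPM. Its 10 macrophage markers summed to 20207 and 18023 CPM and its 6 platelet markers to 3191 and 10474. Nearly all of the platelet sum was Pf4 (3120 and 10020 CPM), followed by Ppbp (71.2 and 454). Gp9, Gp1bb and Tubb1 were at 0 in both libraries, so the sum does not show platelet material. Median UMIs were 7739 and 5373. Dnajb9 and Ppp1r15a are both highest in neutrophil-like cells, and the part of foreign RNA in these ratios was not tested.

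**Figure D3:**
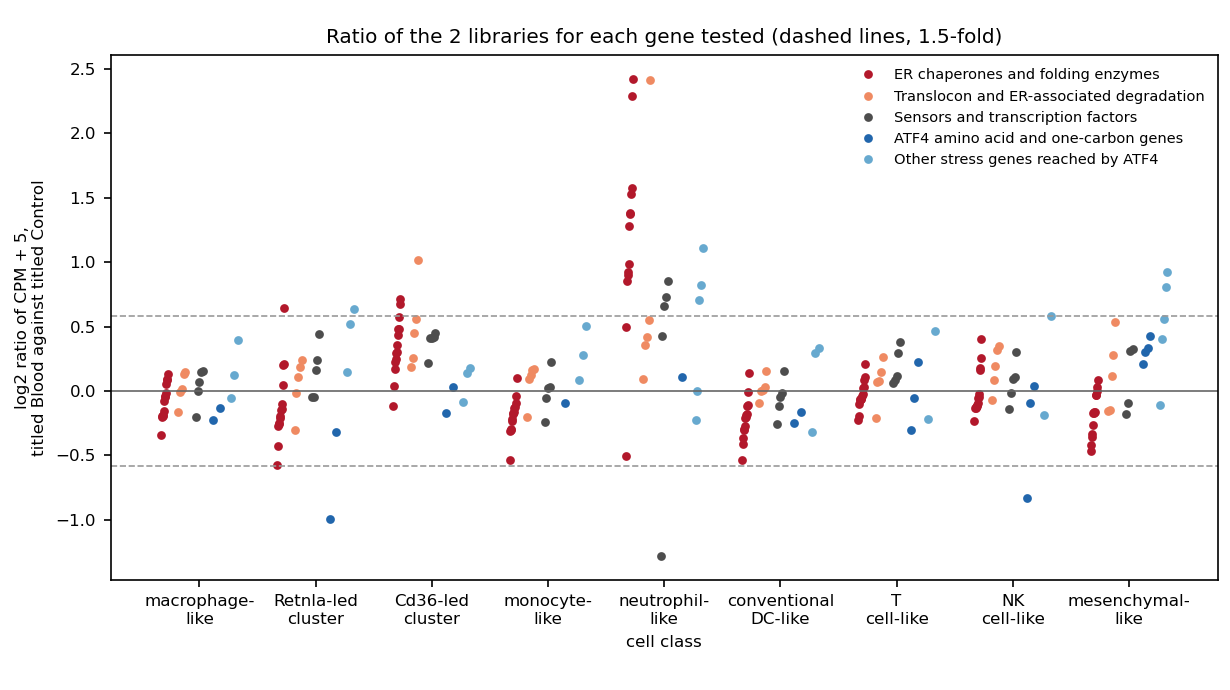
Log2 ratio of CPM plus 5, titled Blood against titled Control, for each measured gene of the 35 in 9 cell classes, 1 point per gene and coloured by list; dashed lines mark 1.5-fold. Most points lie between the lines, except those of neutrophil-like cells, where chaperones reach 2.42, and single genes of the Retnla-led, Cd36-led, NK cell-like and mesenchymal-like cells.

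Neutrophil-like cells differed between the libraries in most of the members. Of 29 measured, 18 were at least 1.5-fold higher and 1 lower in titled Blood, and for 15 and 1 of these the interval of the ratio excluded 1. Over all measured genes of the class 18.3% were higher and 13.2% lower. The class held 259745 UMIs titled Control and 3200041 titled Blood, so counting error was larger there than in other classes of this comparison. The median log2 ratio was 1.28 over 13 measured chaperones, 0.42 over the translocon and degradation genes, 0.66 over the sensors and factors and 0.04 over all genes. Of the 13 measured chaperones 11 were higher, among them Hyou1, whose 2 UMIs titled Control let it pass the filter only through its level titled Blood. Creld2 (4 UMIs titled Control), Dnajc3 (5), Pdia3 (10), Pdia6 (16) and Manf (17) reached 20 UMIs only with those titled Blood. So did Sdf2l1 (4) and Dnajb11 (9), which were not higher. Outside the chaperones this held for Sec61a1 (4), Trib3 (4), Atf6 (8) and Ddit4 (16), which were higher. It also held for Asns (3), Chac1 (6), Ern1 (6), Sel1l (6) and Herpud1 (9), which were not. Pdia4, with 2 UMIs titled Control like Hyou1, did not pass. The counts and medians therefore describe the genes that passed and not the whole list. Psat1, Phgdh, Mthfd2, Slc7a5 and Vldlr did not pass it either, which left 29 of 35.

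Hsp90b1 and Sec61a1 had the largest log2 ratios, 2.42 each, that of Sec61a1 resting on 4 UMIs titled Control. Hspa5 stood at 620 CPM (interval 528 to 723, 161 UMIs) titled Control and 1625 (1581 to 1670, 5201 UMIs) titled Blood, a ratio of 2.62 (2.24 to 3.09). Hsp90b1 had 77.0 and 435 CPM, a ratio of 5.65 (3.64 to 9.27). Manf had 65.4 and 205 CPM, a ratio of 3.13 (1.94 to 5.4). The intervals of both libraries did not overlap for any of these 3 genes, and titled Blood was the higher.

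Hyou1 (GRP170), which exchanges nucleotide on BiP, had 2 UMIs titled Control and 183 titled Blood, 7.70 and 57.2 CPM, and its ratio of 7.43 has an interval from 2.03 to 61.8. Sec61a1, the pore of the translocon, had 15.4 and 104 CPM, a ratio of 6.76 (2.61 to 24.9). Pdia3 (38.5 and 108 CPM), Pdia6 (61.6 and 157), Calr (162 and 312), Canx (123 and 227), Creld2 (15.4 and 53.7) and Dnajb9 (127 and 241) were higher in the same direction with intervals above 1. Dnajc3, at 19.2 and 43.1 CPM, passed 1.5-fold with an interval of the ratio from 0.937 to 7.01. All 7 chaperones with an ER stress element in the sites printed above were past 1.5-fold, with log2 ratios of 0.85 to 2.42, as were 2 of 4 measured without one, Dnajb9 and Pdia3. Creld2, Dnajc3 and Pdia6 with the element, and Pdia3, Dnajb11 and Sdf2l1 without it, were measured only through their UMIs titled Blood. Pdia4, also without it, did not pass the filter. These counts therefore cannot compare genes with and without the element, and its part in the ratios was not tested. Not every ER gene differed: Edem1 (115.5 and 123 CPM), Herpud1 (34.6 and 45.6), Sel1l (23.1 and 32.5), Dnajb11 (34.6 and 50.9) and Sdf2l1 (15.4 and 9.37) stayed within 1.5-fold, as did Sec61b (196 and 290 CPM).

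**Figure D4:**
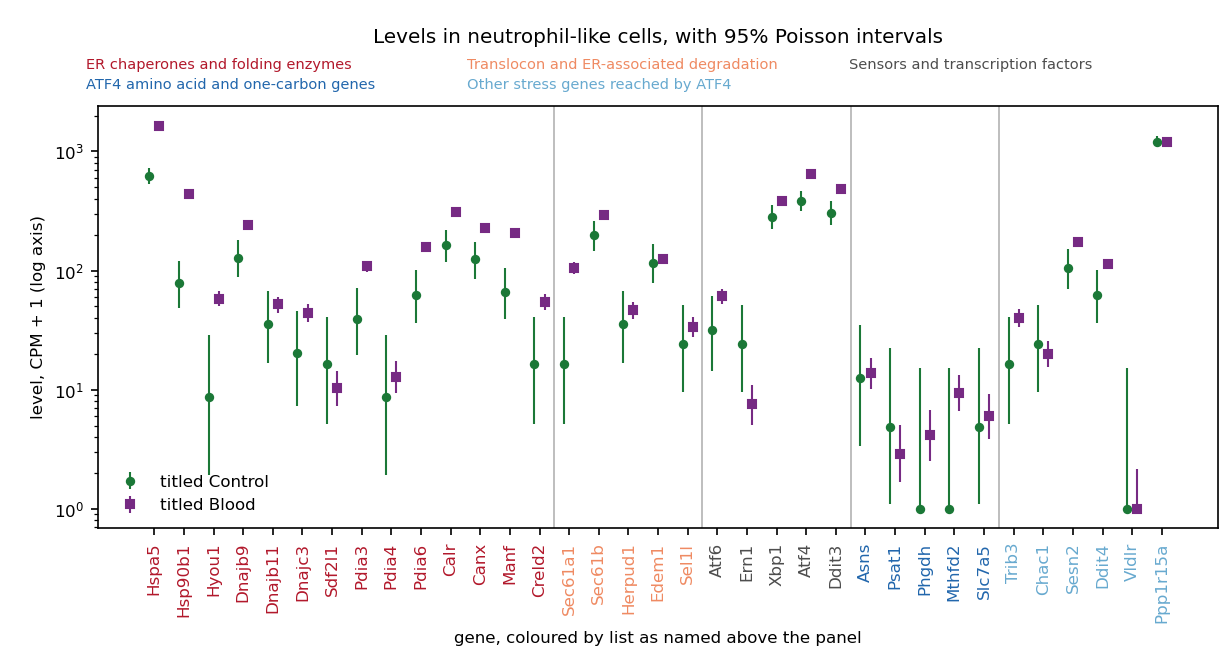
Level of each of the 35 genes in neutrophil-like cells, as CPM plus 1 on a log axis with exact 95% Poisson intervals, circles for the library titled Control and squares for titled Blood. The squares lie above the circles for most chaperones, Hsp90b1 going from 77.0 to 435 CPM, and level with them for Ppp1r15a at 1209 and 1207.

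The ATF4 arm differed less. Atf4 had a ratio of 1.67 (1.37 to 2.06), Ddit3 of 1.59 (1.27 to 2.02) and Sesn2 of 1.66 (1.13 to 2.55). Ddit4, at 61.6 and 113 CPM, had a ratio of 1.83 (1.11 to 3.24). Trib3 had a ratio of 2.54 with an interval from 0.966 to 9.45, and Ppp1r15a one of 0.998 (0.890 to 1.12). Of the 11 amino acid and other stress genes 6 were measured and 3 were higher, with a median log2 ratio of 0.41. Mthfd2 had 8.44 CPM titled Blood and 0 UMIs titled Control, where 3 counts would be 11.5 CPM, so no ratio is given. Among the sensors, Ern1 was the 1 member lower in titled Blood, at 23.1 and 6.56 CPM (6 and 21 UMIs, ratio 0.284, interval 0.111 to 0.860), while Atf6 had 30.8 and 59.7 CPM and Xbp1, within 1.5-fold, had a ratio of 1.35 (1.07 to 1.74).

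The neutrophil-like class was a mix of 5 subclusters that the libraries filled unequally, and chaperones titled Blood were highest in 2 of them. The Gm5483-led subcluster had 1 cell titled Control and 319 titled Blood, and the Hcar2-led subcluster 20 and 484. Titled Blood, these 2 held 5557 and 5759 CPM of the 14 chaperones together, against 1494, 1973 and 1759 in the Retnlg-led, G0s2-led and Cxcr2-led subclusters. In the Hcar2-led subcluster Hspa5 had 867 CPM titled Control and 2746 titled Blood and Manf 27.1 (1 UMI) and 376, whereas Ddit3 (840 and 1005 CPM) and Ppp1r15a (1761 and 1548) were high in both. Atf4 had 840 and 1293 CPM there, against 286 to 374 in the Retnlg-led and G0s2-led subclusters of both libraries. The titled Control values of this subcluster rest on 36916 UMIs.

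In the Retnlg-led and G0s2-led subclusters alone, with 100 cells titled Control and 655 titled Blood, the median log2 ratio of the ER folding, translocon and degradation genes was 0.29, compared with 0.96 in the whole class, and 6 members were higher, where 19.6% of all genes were higher and 8.7% lower. Hspa5 had a log2 ratio of 0.44 there, Ddit3 -0.01, Manf -0.01 and Trib3 -0.82. In the Hcar2-led subcluster alone the ER median was 2.06 and that of the amino acid and other stress genes -0.13, and Ddit4 (-0.35) and Atf6 (-0.34) were lower in titled Blood. This subcluster held 36916 UMIs titled Control and 824734 titled Blood. Genes could pass the filter there through titled Blood alone, so these medians describe only the genes that passed and rest on few counts titled Control. With the 3 subclusters that had at least 20 cells in each library (Retnlg-led, G0s2-led and Hcar2-led) weighted alike in both, the log2 ratio of Hspa5 was 1.16, the median of the amino acid and other stress genes -0.13 and Ddit4 -0.16. In the library titled Control 1 cell held 21 of the 161 Hspa5 UMIs, and without it the level was 550 CPM. Lower genes rested on fewer cells still: 1 cell held 3 of 4 Trib3 UMIs (15.4 CPM with it, 3.88 without), 6 of 16 of Ddit4 (61.6 and 38.8), 2 of 4 of Sec61a1 (15.4 and 7.77) and 2 of 4 of Creld2 (15.4 and 7.77).

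**Figure D5:**
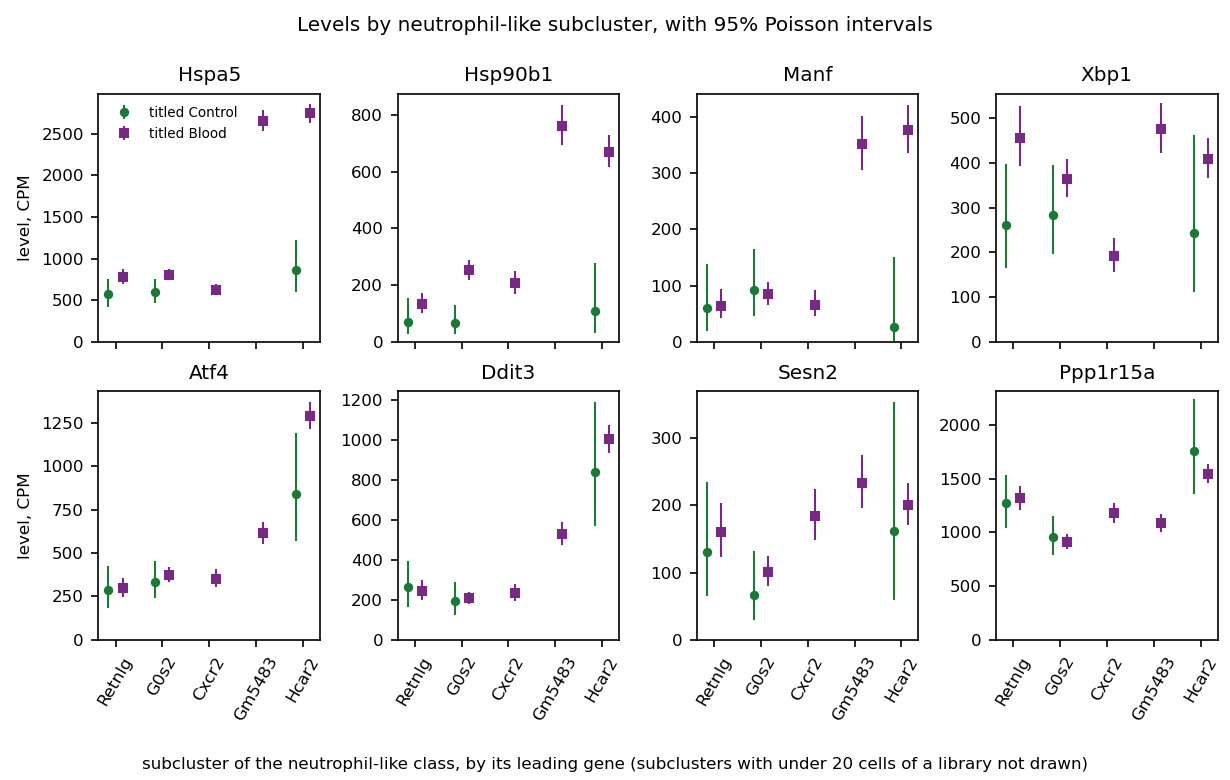
Level in CPM of 8 genes in the subclusters of the neutrophil-like class, each named by its leading gene, with exact 95% Poisson intervals; circles are titled Control and squares titled Blood, and subclusters with under 20 cells of a library are not drawn. Hspa5 and Manf are high in the Gm5483-led and Hcar2-led subclusters titled Blood, and Atf4 and Ddit3 are highest in the Hcar2-led subcluster of both libraries.

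The 10 neutrophil markers summed to 73453 CPM titled Control and 58309 titled Blood, with 0 of 10 at 0 in either. The 10 macrophage markers summed to 1505 and 1693 CPM in neutrophil-like cells, against 27000 and 25931 in macrophage-like cells, and 0 of 10 were at 0. Over the Retnlg-led, G0s2-led, Gm5483-led and Hcar2-led subclusters titled Blood the macrophage markers summed to 1417, 1715, 1450 and 2031 CPM. The 10 monocyte markers summed to 1090 and 766 CPM in the class, with Vcan and Ace at 0 titled Control. Median mitochondrial shares were 0.501% and 0.582%. The part of foreign RNA in the ratios was not tested. With thinned cells, Hspa5 was found in 48.1% (38.4 to 58.0%) of neutrophil-like cells titled Control and 61.5% (58.7 to 64.3%) titled Blood, and Hsp90b1 in 9.26% (4.53 to 16.4%) and 31.1% (28.5 to 33.8%); unthinned shares were 57.4% and 65.7%, and 13.95% and 35.7%.

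The Cd36-led cluster, with 309 and 756 cells, had 3 of 29 measured members higher and 0 lower, where 1.15% of all genes were higher and 0.671% lower. They were Hspa5 (751 and 1232 CPM), Dnajb9 (50.7 and 83.9) and Herpud1 (25.1 and 55.7). The median log2 ratio of the 19 ER genes was 0.36, against 0.07 over all genes. Its 6 platelet markers summed to 4625 and 7622 CPM and its 10 macrophage markers to 19915 and 18059. Here too the platelet sum was mostly Pf4 (4554 and 7281 CPM), then Ppbp (70.4 and 341), with Gp9, Gp1bb and Tubb1 at 0 in both libraries. Its 10 neutrophil markers summed to 420 CPM titled Control, with Cxcr2 and Retnlg at 0, and 666 titled Blood, S100a9 going from 1.60 to 65.6. Median UMIs were 10500 and 7343 and median mitochondrial shares 2.73% and 1.95%, and the part of these in the ratios was not tested. With the low side of the shared barcodes kept, the cluster held 660 and 1498 cells and 0 members were higher (0.312% of all genes), with an ER median of 0.10. Among cells with at least 1000 UMIs 0 were higher as well (0.272% of all genes), with a median of 0.14. With members and pathway genes kept in the clustering 12 were (3.77% of all genes).

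In mesenchymal-like cells the members past 1.5-fold were of the ATF4 arm. Of 32 measured members 2 were higher and 0 lower, against 0.902% and 1.27% of all genes. They were Chac1, at 12.7 and 28.5 CPM (ratio 2.25, interval 1.67 to 3.04), and Sesn2, at 10.3 and 21.7 CPM (2.11, interval 1.51 to 2.97). The 4 measured amino acid genes had smaller ratios in the same direction, Mthfd2 of 1.36 (1.21 to 1.53), Psat1 of 1.28 (1.11 to 1.48), Asns of 1.25 (1.09 to 1.43) and Phgdh of 1.16 (1.08 to 1.24). The median log2 ratio was 0.40 over the 9 measured amino acid and other stress genes and -0.16 over the 19 ER genes, against -0.01 over all genes.

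The Tm4sf1-led subcluster carried these ratios. In its 48 and 22 cells alone the median of the amino acid and other stress genes was 0.70 and 8 members were higher, where 2.32% of all genes were higher and 2.51% lower, and in the class without it the median was -0.02. Asns had 111 and 156 CPM there, Psat1 96.0 and 146, Mthfd2 137 and 222 and Trib3 15.7 and 35.5. Single cells weighed on the low genes: 1 cell held 25 of 80 Chac1 UMIs titled Control and 1 held 27 of 109 titled Blood. Macrophage markers summed to 1056 and 1739 CPM in the Tm4sf1-led subcluster and to 1733 and 2308 in the class, and pericyte and smooth muscle markers to 392 and 227 in the class. Their part in the ratios was not tested. With the low side of the shared barcodes kept the class held 102 and 54 cells and 4 members were higher (1.05% of all genes).

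The wider pathway was read from a list of 107 further genes. In neutrophil-like cells 69 were measured, 22 higher and 5 lower, 12 and 3 of them beyond counting error, against 18.3% and 13.2% of all genes. The highest ratios after that of Sec63 were those of Spcs2, a subunit of the signal peptidase (53.9 and 217 CPM), and Ero1l, the oxidase that recharges the disulfide isomerases (350 and 1199). Sec63 itself, a partner of the translocon, had 7.70 and 49.4 CPM (ratio 6.41, interval 1.75 to 53.4), but with 2 UMIs titled Control it passed the filter only through its level titled Blood. The lowest were those of the stress cytokine Gdf15 (38.5 and 11.2 CPM), of Ero1lb (30.8 and 11.9) and of Creb3 (30.8 and 15). Of 20 further translocon and signal processing genes 6 were higher, 4 of them beyond counting error, and 0 lower. Of 6 measured aminoacyl-tRNA synthetases, which charge tRNAs and include ATF4 targets, 2 were higher, Aars (26.9 and 63.1 CPM) and Sars (46.2 and 94.1). Spcs2, Aars and Sars, and the lower Gdf15, Ero1lb and Creb3, reached 20 UMIs only with those titled Blood. Their ratios rest on few counts titled Control, and the counts of this list describe only the genes that passed.

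Elsewhere the wider list differed little. In macrophage-like cells 0 of 88 measured genes were past 1.5-fold, where 0.379% of all genes were higher and 0.824% lower. In mesenchymal-like cells, where the shares of all genes were 0.902% and 1.27%, 2 of 92 were higher, the synthetase Nars (202 and 321 CPM) and Pmaip1 (26.0 and 47.7), and 1 lower, Atf3 (151 and 80.4). The median log2 ratio of 13 synthetases was 0.25 there, against -0.01 over all genes. Ero1l was past 1.5-fold higher in monocyte-like (76.9 and 141 CPM), NK cell-like (29.2 and 51.1) and Cd36-led cells (317 and 574) too. Gdf15 was lower in the Cd36-led cluster (85.6 and 29.9 CPM) and higher in the Retnla-led cluster (36.3 and 92.2).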

How the data were processed

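Single cells of 2 tumour libraries were measured, 1 per group, grouped by title. Per the labels' protocols, minced tumour was treated for 45 minutes at 37 °C with DNase I and collagenase B, then filtered, and red cells were lysed before 10x Genomics 3' v3 library preparation. The deposited values are raw UMI counts. The submitters' processing notes name Cell Ranger 3.1.0 and the mm10 build. The number of animals, a cell sort, the annotation release and the barcode calling settings were not given in the sources used here. The libraries held 9475 and 12057 barcodes and 115272096 and 115066023 UMIs (titled Control and titled Blood, an order kept throughout).

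Barcodes passed with 300 or more genes, 500 or more UMIs and a mitochondrial share no higher than 20% (8985 and 11617 passed). Scrublet (scanpy 1.11.5) at an expected 0.8% per 1000 barcodes marked 162 cells (1.80%) and 276 (2.38%) where 7.58% and 9.65% were expected, so many doublets were probably kept. Where a shared barcode differed at least 10-fold in UMIs, the lower side was left out, a rule set after seeing the data, as were the naming limits. Clustering used 2000 variable genes without members or pathway genes, 30 components, 15 neighbours and Leiden resolution 1 (igraph 0.11.9), and classes of 1 cluster were split at 0.5. A name needed a mean marker level of 0.2 of the highest cluster, a margin of 0.05, 3 markers found in 10% of cells, and own markers not outnumbered among the top 10 genes.

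Counts were summed per class and library and given as CPM. Intervals are exact at 95% (Poisson for levels, conditional binomial for ratios, Clopper-Pearson for shares) and cover counting error only, as does the limit of 3 counts for a count of 0. Log2 ratios used CPM plus 5. The ratio step was checked on simulated data. With 1 library per group no p-value was made. All members were named, and of the pathway genes up to 3 highest and 3 lowest past 1.5-fold per class, apart from Aars and Sars, and Ero1l and Gdf15 across classes, which were named after their values were seen. Members and lists were chosen with earlier results of these data known. Of 31053 identifiers 30934 were in GENCODE M21 (GRCm38). RefSeq promoters (GRCm38.p6) were searched for motifs. Alternatives are described in the closing section.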

Additional observations from a re-analysis of the deposited data

How the results depend on the processing

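No paired analysis was possible because each group has 1 library and no test was run; for the same reason no replicate could be left out. Of 240 counts of members 199 stayed within 1.5 times of the main count, while 21 of 215 medians and 10 of 16 shares of cells moved beyond the counting interval. Of 402 single ratios 37 moved beyond it and 6 further ones, past 1.5-fold in the whole class, changed sign. In neutrophil-like cells the median of the ATF4 amino acid and stress members was -0.13 with equal weights and -0.13 in the Hcar2-led subcluster, and the ER median was 0.29 in the Retnlg-led and G0s2-led subclusters and 2.06 in the Hcar2-led one. The Hcar2-led medians rest on 36916 UMIs titled Control and describe only the genes that passed the filter there. Members higher numbered 6 in the Retnlg-led and G0s2-led subclusters. Members lower numbered 2 with a pseudocount of 1, equal weights or the Hcar2-led subcluster alone, and 0 with at least 50 CPM or in the Retnlg-led and G0s2-led subclusters. The ratios that changed sign were Ddit4 (-0.16 with equal weights, -0.35 in the Hcar2-led subcluster), Atf6 (-0.34 there), and Manf (-0.0099), Ddit3 (-0.0103) and Trib3 (-0.82) in the Retnlg-led and G0s2-led subclusters; these settings leave out 2 to 4 of the 5 subclusters, and the cause was otherwise not tested. Equal weights weight each cluster or subcluster with at least 20 cells in each library alike in both, 3 of 5 in neutrophil-like and 3 of 7 in mesenchymal-like cells.

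In the Cd36-led cluster the ER median was 0.62 as a mean of each cell's own CPM, 0.63 with members kept in clustering, 0.14 at 1000 UMIs or more and 0.10 with low-side barcodes kept, and the ATF4 median was 0.35 with members kept in clustering. Members higher there numbered 5 with a pseudocount of 1, with doublets kept or at Leiden resolution 2, 14 as a mean per cell, 12 with members kept in clustering, and 0 at 1000 UMIs or with low-side barcodes kept. In macrophage-like cells, where all medians were small, the ER median was -0.0191 with equal weights, 0.00049 at 1000 UMIs, 0.00066 with low-side barcodes kept and -0.0128 with both unnamed clusters added, and the ATF4 median was 0.0779 as a mean per cell, -0.0039 with doublets kept, -0.0083 at 1000 UMIs, -0.0106 with low-side barcodes kept and 0.0321 with the unnamed clusters added. In mesenchymal-like cells the ER median was -0.47 with equal weights, with 8 members lower, and the ATF4 median was 0.70 in the Tm4sf1-led subcluster, with 8 members higher, and -0.0164 without it. Members higher there numbered 0 with a pseudocount of 20 or at least 50 CPM and 4 with low-side barcodes kept, and 2 were lower as a mean per cell. The cause of these shifts was not tested.

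The small counts of the other classes moved as follows. In the Retnla-led cluster 1 member was higher with a pseudocount of 20 or members kept in clustering, and the lower count was 2 with a pseudocount of 1, 0 with a pseudocount of 20 or at least 50 CPM, and 3 as a mean per cell or with members kept in clustering. In NK cell-like cells 1 was higher with a pseudocount of 1, no filter or a mean per cell, and 0 lower with a pseudocount of 20, at least 50 CPM or a mean per cell. In monocyte-like cells 1 was higher and 1 lower at Leiden resolution 2, with doublets kept or at 1000 UMIs, and 1 lower with low-side barcodes kept. In conventional DC-like cells 1 was lower as a mean per cell, and in T cell-like cells 1 higher with equal weights. Settings with subclusters, unnamed clusters added or low-side barcodes kept were chosen after seeing the data. Leaving the 50 highest genes out of the scaling shifted the median of all genes by under 0.1 in every class. Depth limits the library titled Control, whose neutrophil-like cells held 259745 UMIs.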
